A study of Mus musculus with 12 samples.

Results

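The genes described here are 10 that rise in many tissues when oxygen is short or glucose is burnt fast: Slc2a1, Hk2, Pgk1, Ldha, Pdk1, Vegfa, Adm, Ndrg1, Car9 and Bnip3. They were taken by symbol from the platform annotation, and each is read from the probe set that carried no other symbol and had the highest mean over the 12 arrays. All 10 were found among 22180 genes with such a probe set, and all 10 were among the 16635 genes bright enough to be tested (mean log2 signal of at least 3.65). The arrays came from colorectal tumors of mice given azoxymethane, a carcinogen, and dextran sulfate, which injures the colon lining (AOM/DSS), from which stroma and tumor tissue had been cut apart with a laser in paraffin sections. There were 3 arrays each of Stat3dm stroma, Stat3dm tumor, Stat3wt stroma and Stat3wt tumor. Stat3dm mice lacked STAT3 in myeloid cells by a conditional deletion, and Stat3wt mice were wild type. Each array held RNA from 2 tumors of 1 mouse, and all 4 groups had the AOM/DSS treatment, so no untreated colon is compared. The sources used here do not name the promoter that drove the deletion, the age or the strain, nor say whether stroma and tumor of 1 number came from the same mouse.

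When oxygen falls, the hypoxia-inducible factor HIF-1, a pair of the proteins HIF-1α (gene Hif1a) and ARNT, escapes degradation and switches on genes through short DNA elements. In normal oxygen, prolyl hydroxylases of the Egln family mark HIF-1α for destruction by the VHL protein. The genes switched on move cells toward glycolysis, the oxygen-free breakdown of glucose to lactate, and call for new vessels. Many tumors use glycolysis even where oxygen is present, and the colon lining is itself known for low oxygen near the gut lumen.

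The core of the element that HIF binds reads ACGTG or GCGTG, and the promoters of genes whose levels ran most alike or whose groups did not overlap are shown to let this core be seen. RefSeq promoter windows of 300 bases, running from 250 before to 50 after the annotated start (build GRCm38.p6), were listed for 9 of the 10 genes, as 12 windows, since Ldha, Pdk1 and Vegfa had 2 each. Ndrg1 is named only. Searched on both strands, ACGTG or GCGTG was found in 10 of the 12 windows, against 43.8% of all 32851 windows in the table. ACGTG alone was in 7 of the 12 windows, against 19.6% of all. Each of the 9 genes had a match in at least 1 window, Pdk1 and Vegfa in only 1 of 2, and no share by gene was computed for all genes. The 10 genes were listed as genes that rise when oxygen is short, so these counts are no test. In the lines that follow, capitals mark each match on the strand of the gene, the reverse complements of both cores included. Overlapping matches on opposite strands count as 2. A match describes letters and is not a site. On the minus strand lie Hk2 at chr6:82774405-82774704, Bnip3 at chr7:138909457-138909756 and Vegfa at chr17:46032328-46032627 (window 1) and chr17:46025114-46025413 (window 2). On the plus strand lie Pgk1 at chrX:106186850-106187149, Car9 at chr4:43506776-43507075, Slc2a1 at chr4:119108495-119108794 and the first window of Ldha at chr7:46845554-46845853.
Hk2: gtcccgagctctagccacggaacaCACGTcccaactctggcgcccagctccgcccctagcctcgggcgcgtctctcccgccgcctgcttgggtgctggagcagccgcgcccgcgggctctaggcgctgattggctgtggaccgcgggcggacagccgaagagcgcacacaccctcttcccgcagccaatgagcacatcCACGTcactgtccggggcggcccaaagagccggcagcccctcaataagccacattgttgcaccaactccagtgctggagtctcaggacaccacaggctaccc
Pgk1: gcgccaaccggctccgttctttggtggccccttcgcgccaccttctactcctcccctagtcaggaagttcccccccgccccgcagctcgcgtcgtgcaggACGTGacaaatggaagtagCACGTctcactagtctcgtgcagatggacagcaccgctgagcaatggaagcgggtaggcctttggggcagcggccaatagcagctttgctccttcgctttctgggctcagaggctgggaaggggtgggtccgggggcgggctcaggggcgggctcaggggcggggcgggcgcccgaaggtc
Car9: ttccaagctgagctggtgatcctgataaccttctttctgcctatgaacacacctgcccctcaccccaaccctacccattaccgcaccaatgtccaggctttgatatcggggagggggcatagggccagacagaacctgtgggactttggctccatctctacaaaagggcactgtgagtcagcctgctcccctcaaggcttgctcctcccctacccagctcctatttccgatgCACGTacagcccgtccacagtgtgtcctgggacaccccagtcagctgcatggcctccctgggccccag
Slc2a1: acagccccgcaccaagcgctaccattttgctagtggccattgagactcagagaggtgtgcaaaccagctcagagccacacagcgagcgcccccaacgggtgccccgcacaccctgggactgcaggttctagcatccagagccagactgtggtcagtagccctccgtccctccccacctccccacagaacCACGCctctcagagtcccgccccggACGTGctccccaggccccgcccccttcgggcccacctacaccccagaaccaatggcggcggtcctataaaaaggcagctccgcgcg
Ldha: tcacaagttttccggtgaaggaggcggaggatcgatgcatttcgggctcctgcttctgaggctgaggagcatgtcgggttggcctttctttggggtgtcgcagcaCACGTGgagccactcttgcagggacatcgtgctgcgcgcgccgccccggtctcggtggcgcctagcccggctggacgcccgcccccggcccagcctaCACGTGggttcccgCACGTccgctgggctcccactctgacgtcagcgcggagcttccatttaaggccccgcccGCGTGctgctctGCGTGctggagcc
Bnip3: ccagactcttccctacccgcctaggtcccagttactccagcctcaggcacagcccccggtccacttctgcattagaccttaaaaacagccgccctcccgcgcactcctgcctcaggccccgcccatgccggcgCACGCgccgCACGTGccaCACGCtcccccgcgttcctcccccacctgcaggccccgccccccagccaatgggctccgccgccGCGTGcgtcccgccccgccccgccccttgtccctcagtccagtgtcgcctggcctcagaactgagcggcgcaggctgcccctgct
Vegfa window 1: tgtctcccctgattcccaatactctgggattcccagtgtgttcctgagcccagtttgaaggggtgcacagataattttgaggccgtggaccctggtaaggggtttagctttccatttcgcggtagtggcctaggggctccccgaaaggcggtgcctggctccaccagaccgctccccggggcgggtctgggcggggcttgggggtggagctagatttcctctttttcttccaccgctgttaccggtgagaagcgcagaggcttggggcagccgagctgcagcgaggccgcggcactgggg
Vegfa window 2: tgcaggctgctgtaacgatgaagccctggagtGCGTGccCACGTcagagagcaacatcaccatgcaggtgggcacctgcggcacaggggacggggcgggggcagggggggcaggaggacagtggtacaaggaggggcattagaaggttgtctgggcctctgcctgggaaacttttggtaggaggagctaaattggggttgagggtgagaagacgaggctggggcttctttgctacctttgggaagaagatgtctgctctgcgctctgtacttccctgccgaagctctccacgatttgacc
The Car9 window had 1 match, 18 bases before the start. Pgk1 had 2, 150 and 131 bases before it, and Slc2a1 had 2, 61 and 36 bases before it. Ldha had 7 in the window shown and 2 in its other window. Bnip3 had 5, and Vegfa had 0 in window 1 and 2 in window 2.

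Array medians lay between 4.20 and 4.43 on the log2 scale and the standard deviation (SD) of an array's values between 1.60 and 1.91, and 0 of 66 pairs of arrays were identical. Stat3 itself did not check the labels: its log2 signal lay between 6.72 and 8.22 over all arrays. It differed between Stat3dm and Stat3wt stroma by 0.00 (95% confidence interval -0.68 to 0.69). The deletion concerns myeloid cells only, and why the signal of Stat3 lay alike was not tested. Epithelial markers, 12 genes such as Epcam and Krt8, lay lower in stroma, though the Stat3dm arrays overlapped. Their mean log2 signal lay at 7.37 to 8.78 in Stat3dm stroma, against 8.72 to 9.47 in Stat3dm tumor, and at 7.70 to 8.08 in Stat3wt stroma, against 8.69 to 9.32 in Stat3wt tumor. All 12 were lower in stroma in both genotypes, and 6 passed limma's test over both genotypes (2.55% of all genes passed). One library stood apart from its label. Stat3dm stroma 1 had an epithelial level of 8.78, above Stat3dm tumor 1 at 8.72 and Stat3wt tumor 2 at 8.69, while Stat3dm stroma 2 and 3 had 7.37 and 8.26. The same array had the highest level of the 5 neutrophil markers, 8.32, against 6.84 and 6.73 in Stat3dm stroma 2 and 3. For comparisons that use it, medians of the 10 genes are given with and without it, as are some of the genes it moved most. Genes outside the 10 are given with it unless another setting is named.

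Slc2a1 encodes GLUT1, the glucose carrier of most cells. Its log2 signal was 8.56, 6.79 and 6.97 in Stat3dm stroma 1, 2 and 3, against 6.70, 6.71 and 6.51 in Stat3wt stroma. In tumor it was 7.07, 7.51 and 8.01 in Stat3dm, against 8.12, 7.33 and 7.46 in Stat3wt. The 3 Stat3wt stroma arrays were the lowest of all 12, and the Stat3dm stroma arrays were spread most, with 1 array above every tumor and the others below. Hk2, hexokinase 2, which traps glucose in the cell by phosphorylation, had 7.60, 6.64 and 7.37 in Stat3dm stroma and 7.53, 7.53 and 8.52 in Stat3dm tumor. In Stat3wt it had 7.21, 6.48 and 6.47 in stroma and 7.60, 6.99 and 7.09 in tumor. Stat3dm tumor 3 was the highest array of this gene, and stroma overlapped tumor in both genotypes.

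Pgk1, phosphoglycerate kinase, makes ATP in the later steps of glycolysis and had levels that ran with those of Hk2. It had 8.16, 7.10 and 8.08 in Stat3dm stroma, 7.95, 8.01 and 9.07 in Stat3dm tumor, 7.70, 7.27 and 7.03 in Stat3wt stroma and 8.38, 7.88 and 7.68 in Stat3wt tumor. Again Stat3dm tumor 3 was the highest array. Ldha, the lactate dehydrogenase chain that turns pyruvate into lactate, had 6.07, 5.50 and 5.45 in Stat3dm stroma, against 5.31, 5.01 and 4.89 in Stat3wt stroma. Its tumor levels were 5.60, 5.40 and 5.45 in Stat3dm, against 5.47, 5.40 and 5.07 in Stat3wt. For Ldha all 3 Stat3dm stroma arrays lay above all 3 Stat3wt stroma arrays, while the tumor arrays of both genotypes overlapped. Pdk1, pyruvate dehydrogenase kinase 1, switches off pyruvate dehydrogenase and so keeps pyruvate from becoming acetyl-CoA in the mitochondrion. It had the narrowest range of the 10 genes, 1.08 log2 units, at 5.53, 5.53 and 5.80 in Stat3dm stroma, 5.63, 5.65 and 6.60 in Stat3dm tumor, 6.05, 5.87 and 5.59 in Stat3wt stroma and 5.74, 5.76 and 5.76 in Stat3wt tumor. Stat3dm tumor 3 was its highest array.

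Of the 2 secreted factors, Vegfa encodes the growth factor that draws new vessels, and Adm encodes adrenomedullin, a peptide that widens vessels. Vegfa had 8.41, 6.26 and 6.94 in Stat3dm stroma and 7.04, 6.79 and 7.36 in Stat3dm tumor, against 6.61, 6.51 and 6.89 in Stat3wt stroma and 7.41, 6.84 and 7.20 in Stat3wt tumor. Stat3dm stroma held both its highest and its lowest array. Adm had 5.84, 5.56 and 5.12 in Stat3dm stroma, 6.0, 5.57 and 4.90 in Stat3dm tumor, 5.25, 5.16 and 4.61 in Stat3wt stroma and 6.36, 5.42 and 5.08 in Stat3wt tumor. The groups of Adm overlapped throughout.

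The other 3 genes serve acid balance and stress. Car9, carbonic anhydrase 9, is a surface enzyme that handles acid outside the cell, and had 5.94, 4.77 and 5.76 in Stat3dm stroma, 5.77, 5.83 and 6.52 in Stat3dm tumor, 5.88, 5.12 and 4.74 in Stat3wt stroma and 6.44, 5.22 and 5.31 in Stat3wt tumor. Its groups overlapped in both tissues and both genotypes. Ndrg1, a stress-induced cytoplasmic protein, had 7.86, 6.43 and 6.20 in Stat3dm stroma, 6.32, 6.41 and 6.65 in Stat3dm tumor, 6.19, 6.41 and 6.46 in Stat3wt stroma and 7.32, 6.55 and 6.96 in Stat3wt tumor. Stat3dm stroma 1 was more than 1 log2 unit above the other stroma arrays. Bnip3, a mitochondrial protein that marks mitochondria for autophagy, had 5.33, 4.46 and 4.78 in Stat3dm stroma, 4.59, 4.97 and 5.56 in Stat3dm tumor, 4.59, 4.71 and 4.86 in Stat3wt stroma and 5.51, 5.30 and 4.94 in Stat3wt tumor. Stat3wt stroma lay wholly below Stat3wt tumor for both Ndrg1 and Bnip3.

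**Figure D1:**
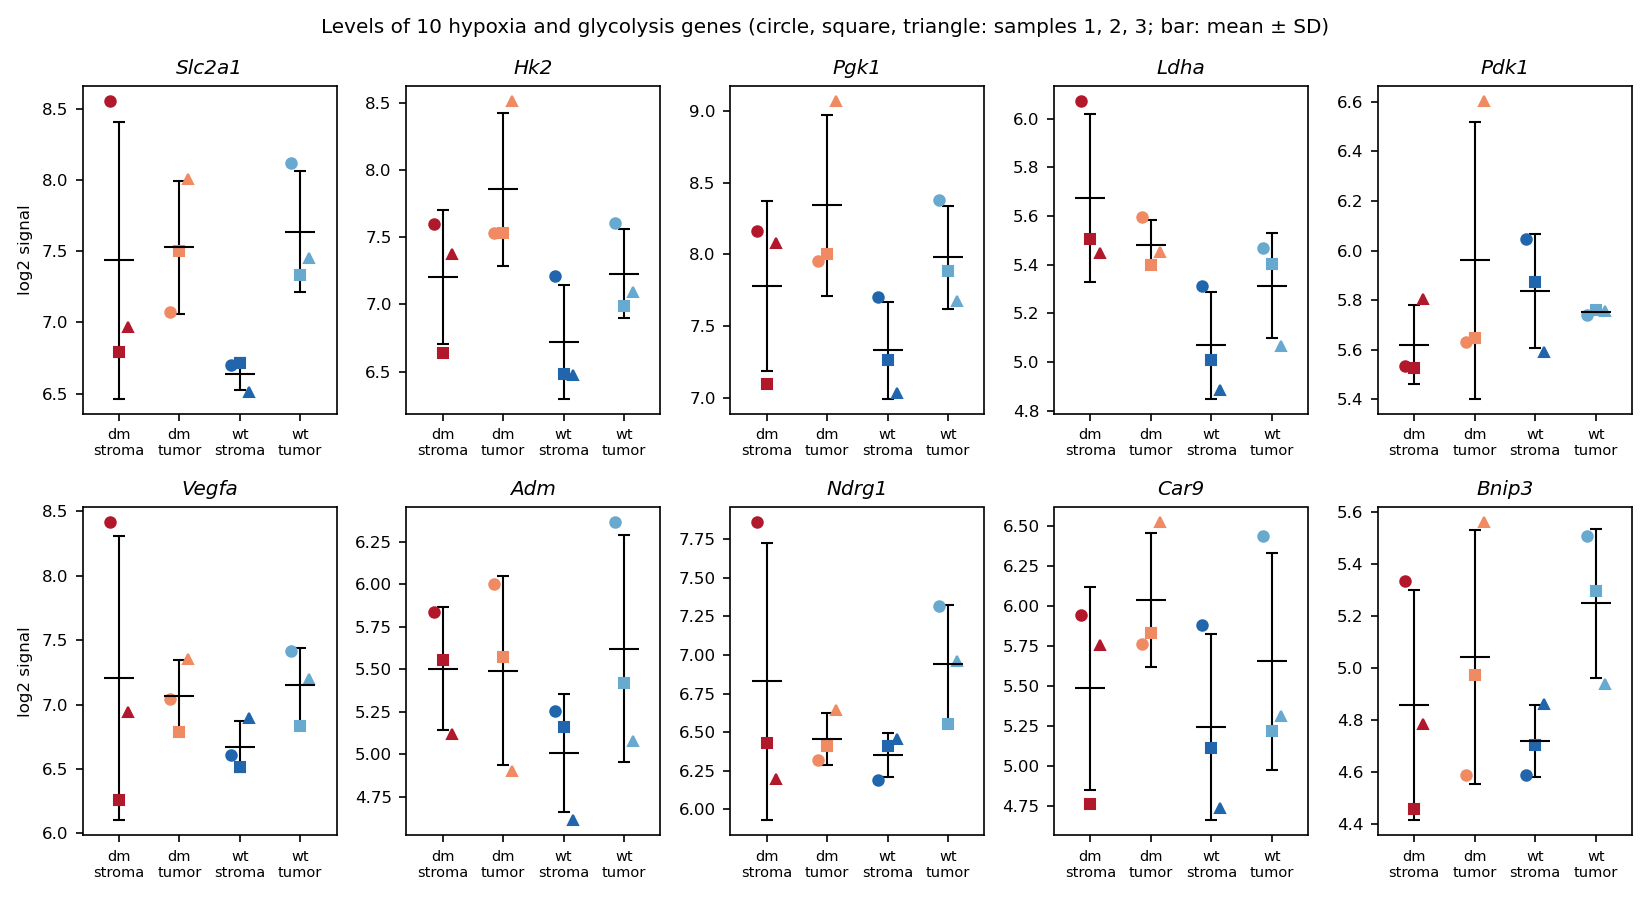
Log2 signal (vertical axis) of each of the 10 genes in Stat3dm stroma, Stat3dm tumor, Stat3wt stroma and Stat3wt tumor. Points are arrays (circle, square and triangle for samples 1, 2 and 3), with the mean and SD of 3 arrays. Stat3dm stroma 1 is the top point for Slc2a1, Ldha, Vegfa and Ndrg1, and Stat3dm tumor 3 for Hk2, Pgk1, Pdk1, Car9 and Bnip3.

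Ordered by group mean, Stat3wt stroma was lowest for 9 of the 10 genes, and Pdk1 was the exception, with its lowest mean in Stat3dm stroma. The highest mean fell to Stat3dm tumor for 4 genes (Hk2, Pgk1, Pdk1 and Car9), to Stat3wt tumor for 4 (Slc2a1, Adm, Ndrg1 and Bnip3) and to Stat3dm stroma for 2 (Ldha and Vegfa). Of the 30 pairs of neighbours in these orders 29 overlapped between arrays, and the other was Slc2a1 in Stat3dm stroma, at 7.44 ± 0.97 (SD, n = 3), over Stat3wt stroma, at 6.64 ± 0.11 (SD, n = 3).

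The first comparison asked what myeloid STAT3 changes in the stroma, the stated purpose of the study. In Stat3dm stroma 9 of the 10 genes lay above Stat3wt stroma, and Pdk1 lay below. The median log2 difference was 0.48, against -0.02 over all genes tested, of which 47.2% lay above 0. None of the 10 passed limma's test at an adjusted p of 0.05 (0% of all genes passed), and 1, Ldha, had an unadjusted p under 0.05 and was higher, as were 3.14% of all genes. Ldha was 1.52-fold higher in Stat3dm stroma, with a log2 difference of 0.61 ± 0.22 (SE; 95% confidence interval 0.14 to 1.07; adjusted p = 0.760 in limma). Slc2a1 was 1.74-fold higher, a log2 difference of 0.80 ± 0.39 (SE; interval -0.03 to 1.63; adjusted p = 0.999). These 2 genes were those whose groups did not overlap in this direction, which held for 5.13% of all genes. Vegfa differed by 0.53 (interval -0.31 to 1.38), Adm by 0.49 (-0.24 to 1.23), Hk2 by 0.48 (-0.21 to 1.18), Ndrg1 by 0.48 (-0.26 to 1.21) and Pgk1 by 0.45 (-0.29 to 1.18). Car9 and Bnip3 differed by 0.24 and 0.14. In tissue cut from sections, a change in the share of cells of a type and a change in RNA per cell cannot be told apart.

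Without Stat3dm stroma 1 the median of the 10 genes was 0.13, with 6 above 0, and the log2 difference of Vegfa was -0.07, of Ndrg1 -0.04 and of Slc2a1 0.24. Adm then differed by 0.33, Hk2 by 0.28, Pgk1 by 0.26, Car9 by 0.01, Bnip3 by -0.10 and Pdk1 by -0.17. Ldha differed by 0.41 without it, and lay between 0.41 and 0.73 over 24 other settings of the analysis, with adjusted p from 0.119 to 1. With the epithelial level of each array in the fit, a setting chosen after the data were seen, 9 of 10 genes lay above 0 with a median of 0.34. All 5 neutrophil markers lay higher in Stat3dm stroma too, with a median log2 difference of 0.82 and 0 passing. So did all 6 T cell markers, with a median of 0.52, and both B cell markers tested, with a median of 1.52, again with 0 passing. The T and B cell levels were lower in Stat3dm stroma 1 than in Stat3dm stroma 2 and 3. The neutrophil level was 8.32, 6.84 and 6.73 in Stat3dm stroma 1, 2 and 3, against 6.15 to 6.97 in Stat3wt stroma. Of 6 macrophage markers 5 lay above 0, at a median of 0.41. Below 0 lay 4 of 6 endothelial markers (median -0.30), 6 of 8 fibroblast markers (-0.10) and all 5 smooth muscle markers (-0.14). The part of these cells in the values of the 10 genes was not tested.

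In tumor 5 of the 10 genes lay above 0 and 5 below in Stat3dm relative to Stat3wt tumor, with a median log2 difference of 0.04, against -0.01 over all genes, of which 48.7% lay above 0. None of the 10 passed (0.018% of all genes did), and 0 had an unadjusted p under 0.05 in limma, against 6.26% of all genes. Hk2 had the largest difference, 0.63 ± 0.32 (SE; interval -0.07 to 1.32; adjusted p = 0.823), followed by Ndrg1 at -0.49 ± 0.34 (SE; interval -1.22 to 0.25; adjusted p = 0.823). The median was -0.06 without Stat3dm tumor 3, and 0.22 with 8 genes above 0 without Stat3wt tumor 1. With array weights 9 lay below 0, at a median of -0.45, and Ndrg1 and Bnip3 passed (9.49% of all genes passed). Without the 2 arrays of widest spread 8 lay below 0, at a median of -0.13. Whether the genotype difference itself differed between stroma and tumor was tested as an interaction: 0 of the 10 genes passed (0% of all genes passed), 0 had an unadjusted p under 0.05 (2.41% of all), 7 lay above 0 (52.5% of all), and the widest was Ndrg1 at 0.96 ± 0.49 (SE; interval -0.08 to 2.0; adjusted p = 0.995). Without Stat3dm stroma 1 Ndrg1 was at 0.45, and the median of the 10 genes was 0.06, against 0.39 with it. Averaged over both tissues, 7 of 10 genes lay above 0 in Stat3dm with a median of 0.27 (47.4% of all genes lay above 0), 0 passed (0.283% of all genes passed) and 2 were higher at an unadjusted p under 0.05 (3.52% of all), Hk2 at 0.56 (interval 0.06 to 1.05) and Ldha at 0.39 (0.06 to 0.71). Without Stat3dm stroma 1 that median was 0.08, and with array weights it was -0.05, with 4 of 10 genes above 0.

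**Figure D2:**
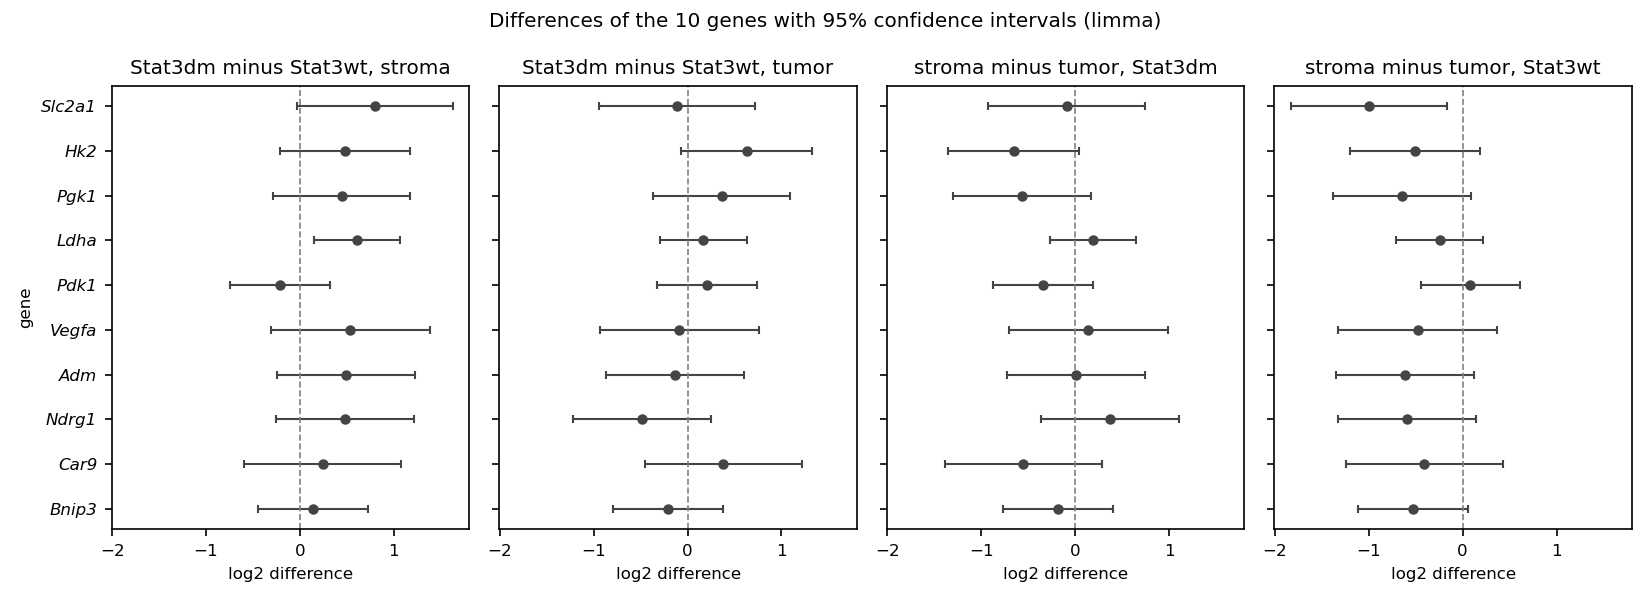
Log2 difference (horizontal axis) with 95% confidence interval from limma for each gene, in 4 comparisons of 3 against 3 arrays. Intervals leave out 0 for Ldha in stroma between genotypes and for Slc2a1 between stroma and tumor of Stat3wt, and in no other case.

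The second comparison set stroma against tumor. In Stat3dm 6 of 10 genes were lower in stroma, with a median log2 difference of -0.14, against -0.03 over all genes, of which 54.5% lay below 0. Among the 10, 0 passed (0% of all genes passed) and 0 had an unadjusted p under 0.05 in limma (9.68% of all). Hk2, Pgk1 and Car9 lay lowest, at -0.65 ± 0.32, -0.56 ± 0.34 and -0.55 ± 0.39 (SE), with adjusted p = 0.546, 0.662 and 0.736. Ndrg1, Ldha and Vegfa lay above 0, at 0.37, 0.19 and 0.14. Without Stat3dm stroma 1 all 10 lay below 0 with a median of -0.44, Vegfa at -0.46, Ndrg1 at -0.14 and Slc2a1 at -0.65, against -0.09 with it.

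In Stat3wt 9 of 10 genes were lower in stroma, Pdk1 again being the exception at 0.08. The median log2 difference was -0.52, against -0.04 over all genes, of which 53.3% lay below 0. None of the 10 passed in limma (0% of all genes passed), and Slc2a1 alone was lower at an unadjusted p under 0.05, as were 11.6% of all genes. Slc2a1 was 2.0-fold lower in stroma, a log2 difference of -1.0 ± 0.39 (SE; interval -1.83 to -0.17; adjusted p = 0.256). Stroma and tumor did not overlap, with stroma lower, for Slc2a1, Ndrg1 and Bnip3, 3 of 10 genes, against 15% of all genes. Pgk1 differed by -0.65 (interval -1.38 to 0.09), Adm by -0.61 (-1.35 to 0.12), Ndrg1 by -0.59 (-1.33 to 0.15) and Bnip3 by -0.53 (-1.12 to 0.06). Without Stat3wt tumor 1 the median was -0.33. With array weights, which gave that array the most weight, 9 of the 10 passed (23.8% of all genes passed) and the median was -0.90. That weight was 7.80, against 0.258 for Stat3wt tumor 3, and the estimation of the weights stopped before it converged. With quantile normalization the median was -0.28. With the epithelial level in the fit, which itself differs between the tissues, the median was 0.29.

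Averaged over both genotypes, all 10 genes were lower in stroma, from -0.03 for Ldha to -0.60 for Pgk1, with a median of -0.33 (53% of all genes lay below 0). Of the 10, 0 passed (2.55% of all genes passed) and 2 were lower at an unadjusted p under 0.05 in limma (15.1% of all), Pgk1 at -0.60 ± 0.24 (SE; adjusted p = 0.164) and Hk2 at -0.58 ± 0.23 (SE; adjusted p = 0.160). Slc2a1 lay at -0.54 ± 0.28 (SE; adjusted p = 0.255), and without Stat3dm stroma 1 it passed, at -0.82 (adjusted p = 0.0387). Without that array the median of the 10 genes was -0.47. Vegfa then lay at -0.47, against -0.17 with it, and Ndrg1 at -0.37, against -0.11. Over 24 other settings, 0 to 3834 of all genes passed in this comparison. With array weights 6 of the 10 passed (23% of all genes passed). The epithelial markers were lower in stroma as well, with a median of -1.01. With the epithelial level of each array in the fit, 9 of 10 genes lay above 0 and the median was 0.29. That level differs between the tissues themselves, so it and tissue cannot be told apart.

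**Figure D3:**
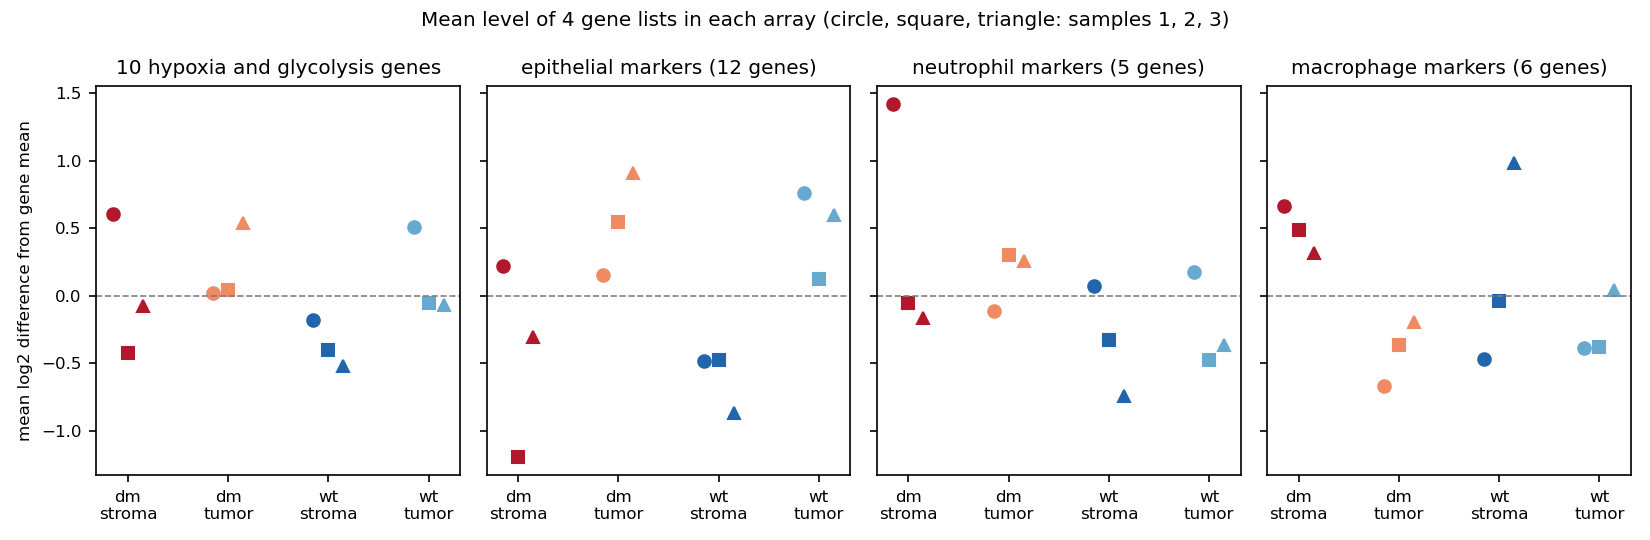
Mean over a list of the log2 signal minus each gene's mean over the 12 arrays (vertical axis), by group, for the 10 genes and for epithelial, neutrophil and macrophage markers. Points are arrays (circle, square and triangle for samples 1, 2 and 3). Stat3dm stroma 1 is highest for the 10 genes, at 0.61, and for neutrophil markers, at 1.42, and its epithelial level, 0.22, lies above that of both other Stat3dm stroma arrays.

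Across the 12 arrays the 10 genes fell into a few close companions, given here as Pearson's r with no test, since arrays share their processing and their mix of cells. Of 45 pairs 42 had r above 0, with a median of 0.551. Hk2, Pgk1 and Car9 ran together, with r = 0.966 for Hk2 and Pgk1, 0.920 for Pgk1 and Car9 and 0.914 for Hk2 and Car9. Slc2a1, Vegfa and Ndrg1 formed the other close set, with r = 0.859 for Vegfa and Ndrg1, 0.852 for Slc2a1 and Vegfa and 0.838 for Slc2a1 and Ndrg1. These sets were picked after the values were seen, and the r of the deviations from group means was as high, at 0.911 to 0.965 in the first and 0.870 to 0.916 in the second. The first set peaked in Stat3dm tumor 3 and the second in Stat3dm stroma 1. Both arrays stay in the deviations, and r was not computed without them. Pdk1 had r = 0.611 with Pgk1, 0.584 with Hk2 and 0.533 with Car9, but 0.143 with Slc2a1 and -0.388 with Adm.

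**Figure D4:**
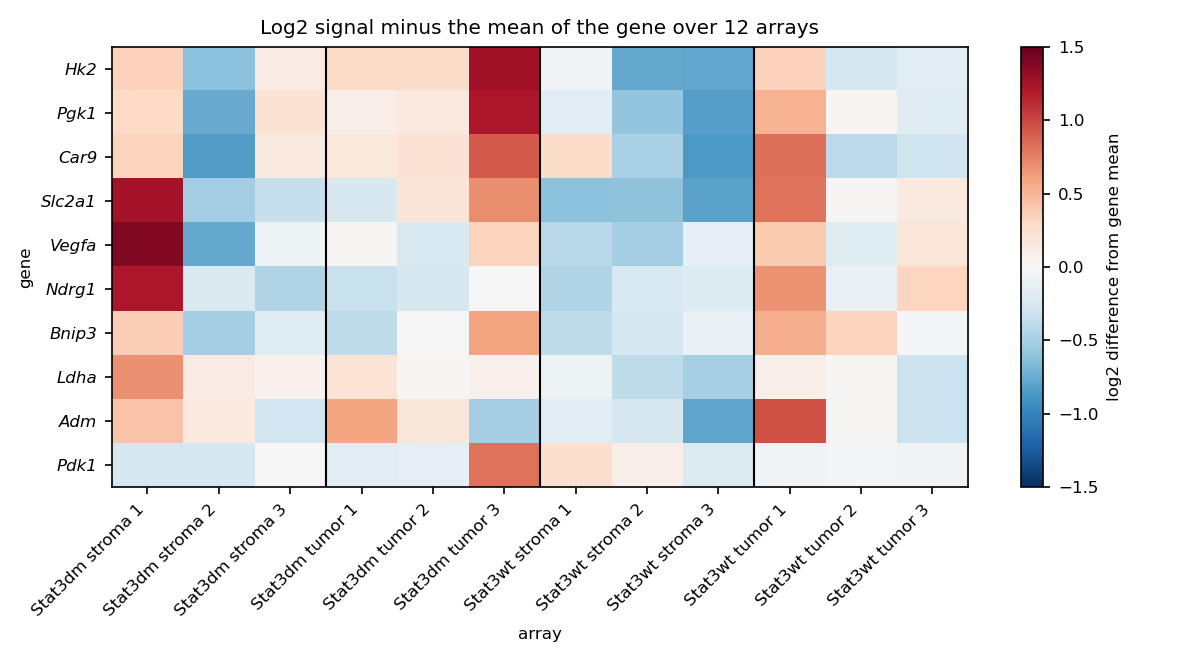
Log2 signal minus the gene's mean over 12 arrays (colour, red above and blue below) for the 10 genes (from top to bottom, ordered after their values were seen) in the 12 arrays (left to right). Hk2, Pgk1 and Car9 are reddest in Stat3dm tumor 3, and Slc2a1, Vegfa and Ndrg1 in Stat3dm stroma 1.

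Outside the 10, the tested genes whose pattern over the 12 arrays was most like their mean profile were Tspan15, Themis3, Fam3b, Krt20, Cdkn1a and Tmem150b, with r from 0.926 to 0.917. Krt20 is a keratin of mature colon epithelium and is also 1 of the 12 epithelial markers. For single genes, Gapdh of glycolysis was among the 3 nearest to Pgk1 (r = 0.934), Ero1a, an oxidase of protein folding, among those nearest to Vegfa (r = 0.930), and Il1rn and Tnf, both genes of inflammatory signaling, among those nearest to Ndrg1 (r = 0.927 and 0.886). The long noncoding RNA Neat1 was nearest to Vegfa, at r = 0.961, and Cdkn1a, the cell cycle inhibitor p21, was nearest to Slc2a1, at 0.932.

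Other genes of glucose breakdown were read from a list of 19, of which 16 were measured and tested. Averaged over genotypes 11 of 16 lay lower in stroma, with a median log2 difference of -0.39. Only 1 of them passed (2.55% of all genes passed), and it went the other way. Slc2a3, which encodes GLUT3, a glucose carrier known from neurons and white blood cells, was 1.70-fold higher in stroma (log2 difference 0.77 ± 0.18 SE, adjusted p = 0.0403 in limma). Its log2 signal was 5.29, 4.74 and 4.48 in Stat3dm stroma, against 4.0, 4.01 and 3.42 in Stat3dm tumor, and 4.65, 4.13 and 3.99 in Stat3wt stroma, against 3.77, 3.78 and 3.69 in Stat3wt tumor. Stroma lay above tumor without overlap in both genotypes, at tumor levels close to the limit of 3.65 used for dim genes. The call was lost in 13 of 24 other settings, in which the difference stayed above 0, between 0.48 and 0.89 over all 24. Leaving out any 1 of 9 of the 12 arrays ended it, all but Stat3dm stroma 3, Stat3dm tumor 1 and Stat3wt tumor 2, with adjusted p from 0.0542 without Stat3dm stroma 1 to 0.106 without Stat3dm stroma 2. Of 6 macrophage markers 5 lay above 0 and 0 passed in the same average, with a mean log2 signal of 6.36 to 6.71 in Stat3dm stroma, against 5.38 to 5.85 in Stat3dm tumor, and 5.57 to 7.03 in Stat3wt stroma, against 5.65 to 6.08 in Stat3wt tumor. Stat3wt stroma and tumor overlapped in that level. Its part in the Slc2a3 difference was not tested.

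Enzymes next to Pgk1 in the pathway also had lower means in stroma, with 0 passing. Averaged over genotypes, Pgam1, phosphoglycerate mutase, differed by -0.69 ± 0.24 (SE) and Gapdh, which makes the substrate of Pgk1, by -0.46 ± 0.17 (SE), with adjusted p = 0.117 and 0.124 in limma. In Stat3wt alone Tpi1, triose phosphate isomerase, differed by -0.84 ± 0.34 (SE, adjusted p = 0.266). Between genotypes in stroma 11 of 16 lay above 0 in Stat3dm, with a median of 0.31. The smallest p-values belonged to Pfkp and Pfkfb3, a phosphofructokinase and the enzyme that makes its activator, both at 0.76 ± 0.30 (SE), and to Slc2a3 at 0.58 ± 0.25 (SE), with adjusted p = 0.873, 0.881 and 0.952. Pfkp had an SD of 0.56 in Stat3dm stroma and 0.09 in Stat3wt stroma, and Pfkfb3 had 0.76 and 0.34.

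**Figure D5:**
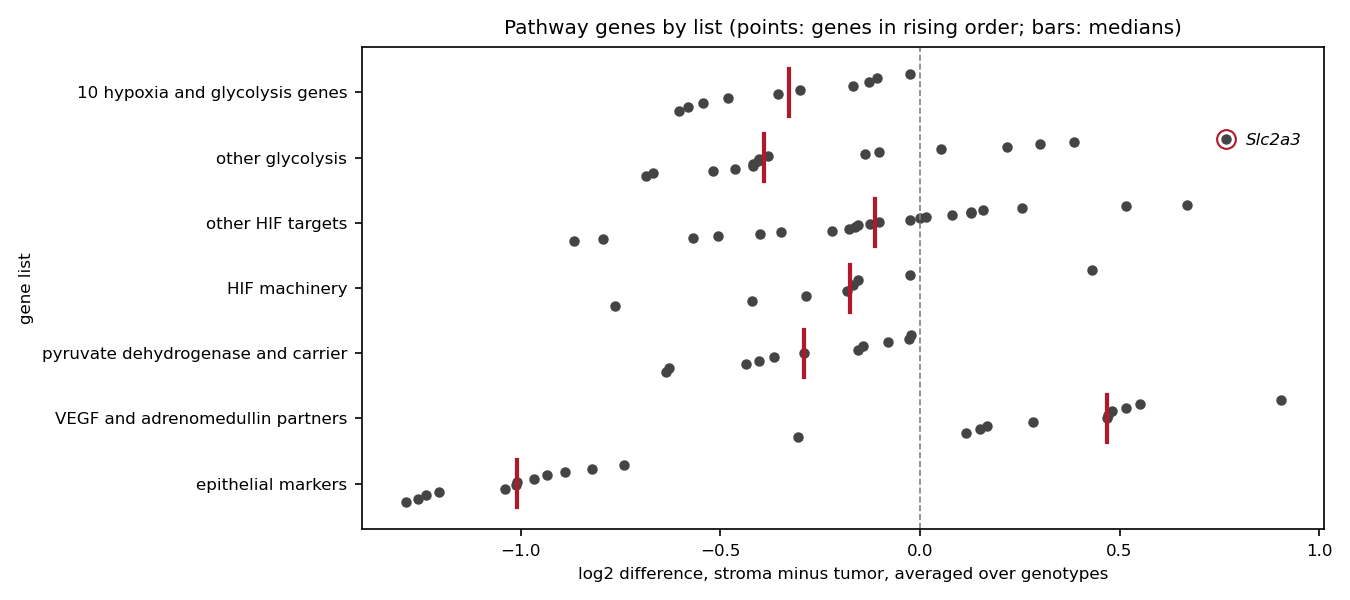
Log2 difference, stroma minus tumor averaged over genotypes (horizontal axis), for the 10 genes, the tested genes of 5 pathway lists and the epithelial markers, 1 list to a line. Points are genes in rising order and bars are medians. The median is -0.33 for the 10 genes, -0.39 for other glycolysis and 0.47 for VEGF and adrenomedullin partners, and the circled Slc2a3 is the 1 pathway gene that passed.

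A further 25 known targets of HIF gave 22 tested genes and no common direction, with 13 lower and 9 higher in stroma averaged over genotypes, a median of -0.11 and 0 passing in limma (4 were lower and 2 higher at an unadjusted p under 0.05, against 15.1% and 7.11% of all genes). Fam162a, a mitochondrial protein, lay at -0.79 ± 0.22 (SE, adjusted p = 0.0716) and Ddit4, a brake on mTOR signaling, at -0.57 ± 0.18 (SE, adjusted p = 0.0988), while Plod2, an enzyme of collagen crosslinking, lay at 0.52 ± 0.18 (SE, adjusted p = 0.118). In stroma Ero1a differed between genotypes by 0.91 ± 0.44 (SE, adjusted p = 0.999), with an SD of 1.13 in Stat3dm stroma and 0.44 in Stat3wt stroma. In tumor Ak4 differed by 1.03 ± 0.26, Hmox1 by -1.11 ± 0.39 and Edn1 by -0.58 ± 0.23 (SE), with adjusted p = 0.279, 0.604 and 0.720. There 2 genes were higher and 2 lower at an unadjusted p under 0.05, against 6.26% of all genes in both directions. Between stroma and tumor, Egln3 lay at -1.28 ± 0.43 in Stat3wt and Hmox1 at 1.32 ± 0.39 in Stat3dm (SE, adjusted p = 0.241 and 0.278). Hmox1 had an SD of 1.06 in Stat3dm stroma and 0.27 in Stat3dm tumor. Of 8 genes of the oxygen sensor itself 0 passed limma's test in any comparison, and 0 to 2 had an unadjusted p under 0.05. Hif1an, the asparagine hydroxylase that restrains HIF, lay at -0.77 ± 0.23 (SE) in stroma averaged over genotypes (adjusted p = 0.0830). Hif1a differed by -0.42 ± 0.22 (SE, adjusted p = 0.272) there. Between genotypes in stroma Cited2, another of the 8, had the smallest p, at 0.68 ± 0.25 (SE, adjusted p = 0.806 in limma). Its groups did not overlap, with Stat3dm higher, which held for 5.13% of all genes. Hif1a differed between genotypes in stroma by 0.41 ± 0.31 (SE, adjusted p = 0.999).

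Receptors and relatives of Vegfa and Adm had higher means in stroma. Of 12 listed 11 were tested, 10 lay higher in stroma averaged over genotypes, at a median of 0.47 on the log2 scale, and none passed limma's test (6 were higher at an unadjusted p under 0.05, against 7.11% of all genes). Calcrl, the receptor of adrenomedullin, differed by 0.90 ± 0.24 (SE, adjusted p = 0.0615), and Nrp1, a coreceptor of VEGF, by 0.55 ± 0.16 (SE, adjusted p = 0.0816). Vegfa and Adm themselves differed by -0.17 and -0.30. All 6 endothelial markers tested lay higher in stroma, with a median of 0.68, and 3 passed (2.55% of all genes passed). The part of these markers in the receptor values was not tested.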

How the data were processed

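The authors deposited log2 signals of 41345 probe sets, for which the submitters' processing notes name RMA and Affymetrix Expression Console 1.3.1. RMA brings arrays to a common distribution at the probe level, so overall shifts between arrays are lost. RNA came from paraffin sections, and 50 ng were amplified and labelled with biotin, per the labels' protocols, which can weaken signals of degraded transcripts. With 3 arrays a group, the number of arrays limits the precision. Genome build and annotation version: not given in the sources used here.

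Of these, 25335 were annotated, 23521 with 1 symbol and 1814 with several, and 16010 were unlisted. For 1082 genes with several probe sets the brightest was used. The 25% of genes with the lowest mean were left out. All 12 arrays were fitted in limma 3.58.1 (R 4.3.3) with 4 group means, 7 contrasts, and Benjamini-Hochberg adjustment over 16635 genes within a contrast at 0.05. Adjusted p-values are from this fit unless another setting is named. The scripts were tested on simulated data. In the comparison of genotypes in stroma they called 46 of 100 genes given a log2 change of 1, and 92 of 100 given 2. A gene that did not pass may therefore still differ. The genes and lists were chosen with earlier results of these data known. Named pathway genes are those that passed and the 3 with the smallest p of a list and contrast. Genes of like pattern are the 3 with the highest r for each gene and the 6 with the highest r for the mean profile. Arrays were left out in turn, and normalization, filter, probe set choice, weights, covariates and blocks were varied.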

Additional observations from a re-analysis of the deposited data

How the results depend on the processing

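The comparisons were repeated under 24 other settings, 12 of them leaving out 1 array each. As reported, 0 of the 10 genes passed in any of the 7 contrasts. Array weights called 2 in tumor between genotypes (median of the 10 genes -0.45), against 9.49% of all genes. They called 9 between stroma and tumor of Stat3wt (median -0.90), against 23.8% of all genes, and 6 averaged over genotypes, against 23%. The weights ran from 0.258 to 7.80, the highest for Stat3wt tumor 1, and their estimation stopped before it converged. Weights estimated gene by gene, added after the data were seen, called 4 in Stat3wt and 5 averaged over genotypes, and gave a median of -0.33 in tumor between genotypes. The epithelial level as a covariate, also added, gave medians of 0.29 in Stat3wt, 0.39 in Stat3dm and 0.29 averaged over genotypes for stroma minus tumor. The replicate block as fixed terms called 2 averaged over genotypes, Hk2 and Pgk1 (adjusted p = 0.0398 and 0.0351, where 0.160 and 0.164 are reported). The labels do not say that numbers pair the samples, so the numbers were not taken as pairs. The deviations of same-numbered stroma and tumor correlated at -0.004 to 0.512, against -0.498 to 0.330 for different numbers of a genotype. Same-numbered tumor arrays of the 2 genotypes, which cannot share a mouse, reached 0.692, so these values cannot settle the pairing. Leaving out 1 array gave 0 to 1 called genes averaged over genotypes (Slc2a1 without Stat3dm stroma 1). Except for array weights, the share of all genes called is not given setting by setting. Those counts therefore say nothing about the 10 genes in particular. Over all genes, calls were 0 as reported and ranged from 0 to 164 between genotypes in stroma, 3 and 0 to 1579 in tumor, 0 and 0 to 4 for the interaction, 47 and 13 to 945 averaged over tissues. For stroma minus tumor they were 0 and 0 to 3963 in Stat3wt, 0 and 0 to 727 in Stat3dm, and 425 and 0 to 3834 averaged over genotypes, each highest with array weights.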

Other observations

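Genes of pyruvate dehydrogenase (its subunits, other kinases and phosphatases) and of the mitochondrial pyruvate carrier were read as a list of 12, of which 11 were tested. All 11 lay lower in stroma averaged over genotypes, at a median of -0.29 on the log2 scale, and none passed limma's test (3 were lower at an unadjusted p under 0.05, against 15.1% of all genes). Pdp2, a phosphatase that reverses the action of Pdk1, differed by -0.63 ± 0.18 (SE, adjusted p = 0.0705 in limma) and Pdha1, a subunit of pyruvate dehydrogenase, by -0.64 ± 0.18 (SE, adjusted p = 0.0705). Between genotypes in stroma Pdp1, another such phosphatase, lay at -0.75 ± 0.25 (SE, adjusted p = 0.714), without overlap of the groups.

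Some of the 10 genes had a second probe set. For Ndrg1 its r with the probe set used was 0.943 over the 12 arrays, and for Car9 0.890. For Pdk1 it was 0.527 and for Slc2a1 0.380, with mean log2 signals of 2.71 and 4.48, against 5.79 and 7.31 for the probe sets used. For Slc2a1 the second probe set differed by -0.12 between stroma and tumor of Stat3wt, where the one used differed by -1.0, and by 0.27 between genotypes in stroma, where the one used differed by 0.80. Averaged over genotypes it lay at 0.05 in stroma minus tumor, against -0.54. For Pdk1 the second probe set, dimmer than the limit of 3.65, had opposite signs. It differed by -0.35 between stroma and tumor of Stat3wt, against 0.08, and by 0.23 between genotypes in stroma, against -0.21. With probe sets of a gene averaged, all 10 genes were lower in Stat3wt stroma than tumor. All 10 were then higher in Stat3dm than Stat3wt stroma.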
